A study of Caenorhabditis elegans with 11 samples.

Results

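The genes described here are 9 regulators of the Caenorhabditis elegans germ line that decide whether a germ cell stays a stem cell, and whether it later makes sperm or an oocyte: glp-1, gld-1, gld-2, gld-3, nos-3, fbf-1, fbf-2, fog-1 and fog-3. They were chosen by gene symbol among the 26763 genes named on the arrays, and each was measured by 1 transcript cluster, which is the set of probes that an array of this type assigns to a gene. In the RefSeq table for WBcel235, gld-1, gld-2, fog-1 and fog-3 lie on chromosome I, gld-3, nos-3, fbf-1 and fbf-2 on chromosome II and glp-1 on chromosome III. RNA came from whole worms of the wild-type laboratory strain N2, which carries no engineered allele, so the germ line was measured together with all other tissues. Treatment of the synchronised larvae started 16 to 18 h after they hatched and went on in liquid medium at 20 °C for 48 h. The control (2 arrays) received no betalain, and the other groups (3 arrays each) received 25 uM of indicaxanthin, phenylalanine-betaxanthin or indoline carboxylic acid-betacyanin. The labels describe all animals as young adults at 3 days after hatching, and each array as an independent trial without saying what was shared within a trial, so p-values measure the spread between these arrays. Betalains are plant pigments in which betalamic acid is joined to an amine or amino acid. Indicaxanthin carries proline at that position, phenylalanine-betaxanthin carries phenylalanine, and indoline carboxylic acid-betacyanin carries an indoline ring with an acid group.

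In the worm gonad a somatic cell at the tip presents a Notch ligand to the germ cells next to it, and GLP-1, the Notch receptor of the germ line, keeps those cells dividing as stem cells. The paired RNA-binding proteins FBF-1 and FBF-2 act with this signal by repressing the mRNAs that start meiosis. GLD-1 and NOS-3 on one side, and the poly(A) polymerase GLD-2 with its partner GLD-3 on the other, push germ cells into meiosis when the signal falls away. FOG-1 and FOG-3 are needed for a germ cell to become sperm, and a hermaphrodite makes sperm as a larva and oocytes as an adult, so the switch between both fates takes place around the last moult.

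Values are log2 intensities after the authors' normalization, so 1 unit is a doubling, and levels of different genes cannot be set against each other because their probes differ. The arrays fell into 2 kinds that did not follow the treatment labels, and this bears on every result. The trial 3 array of indicaxanthin correlated with the other arrays of its group at r = 0.768 and 0.756 over the clusters tested, but at 0.989 to 0.994 with the phenylalanine-betaxanthin arrays. All other pairs of arrays within a group reached 0.982 to 0.992. Markers of germ line, oocytes and yolk split the arrays in the same way. The mean of 15 general germ-line genes was 6.13 to 6.35 on that array and the phenylalanine-betaxanthin arrays, and 2.43 to 2.65 on the other 7. The mean of 15 oocyte genes was 8.20 to 8.31 against 2.55 to 3.23, and that of the 6 vitellogenin (yolk protein) genes 10.01 to 10.09 against 1.56 to 3.17. Genes of moulting, a larval process, ran the other way, with a mean over 15 genes of 3.73 to 4.42 against 5.61 to 6.06. The sperm list of 15 genes was at 2.84 to 3.04 against 1.88 to 2.07. A list of 15 genes of the early embryo had a mean of 2.53 and 2.37 in control and of 2.13 to 2.36 on the treated arrays, all below both controls. Of its 11 tested genes, end-1, hlh-27, pes-1 and nob-1, named after their values were seen, lay below both controls on all 9 treated arrays, as fbf-2 does below. That position was shared by 10.1% of all clusters tested. With all arrays limma called end-1 with no compound and nob-1 only with phenylalanine-betaxanthin. Other genes of the list rose. med-2 rose by 2.14 with indoline carboxylic acid-betacyanin but fell by 1.76 with phenylalanine-betaxanthin, where tbx-9 rose by 3.27 and ceh-51 by 0.43. pes-1 fell by 1.67, 1.95 and 1.77 with indicaxanthin, indoline carboxylic acid-betacyanin and phenylalanine-betaxanthin, and hlh-27 by 1.47, 1.44 and 1.60, with limma adjusted p-values of 0.000284 to 0.0221. Their part in the result for fbf-2 was not tested. Adult yolk and oocyte markers were therefore low on 7 arrays labelled young adult, both controls included. For each pair of groups, the number of regulators called is given below with all 11 arrays and again without the trial 3 array of indicaxanthin. Changes of single pathway genes come from all 11 arrays. In whole worms, fewer germ cells and less RNA per germ cell cannot be told apart.

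**Figure D1:**
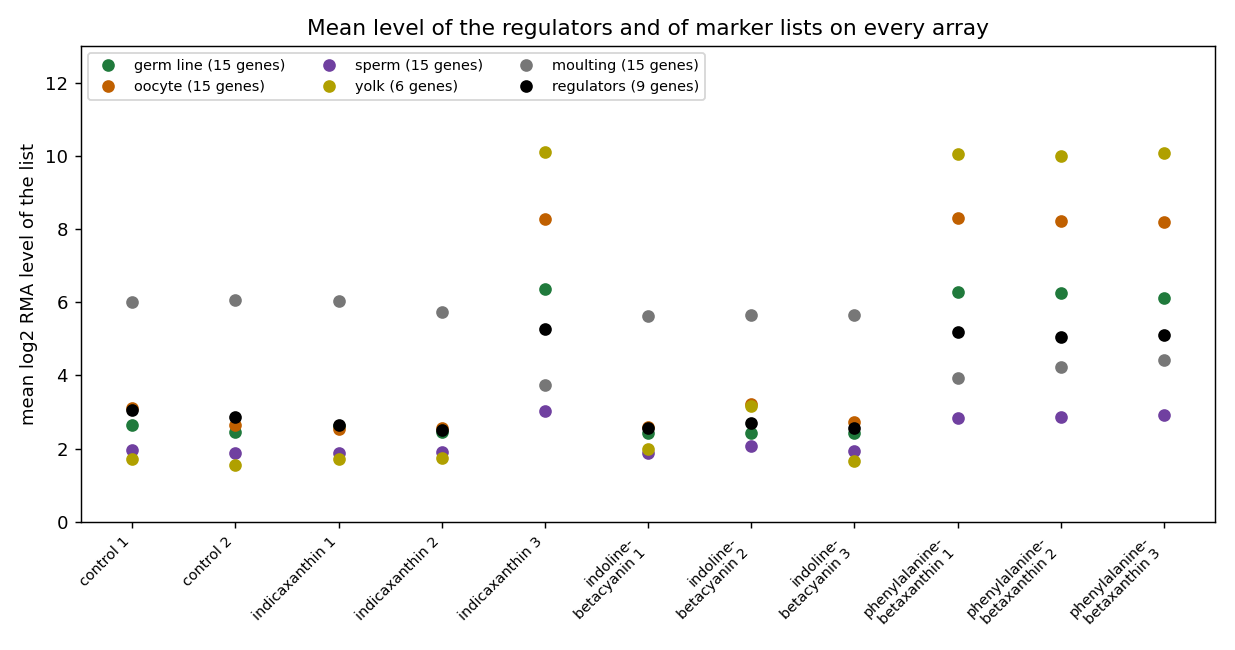
Mean log2 level of the regulators and of the marker lists on each of the 11 arrays, by group; each point is 1 array. The germ-line, oocyte and yolk lists are high and the moulting list is low on the 3 phenylalanine-betaxanthin arrays and the trial 3 array of indicaxanthin.

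The receptor gene glp-1 was read at 2.56 and 2.39 on the control arrays. It was at 2.48, 2.30 and 2.27 with indoline carboxylic acid-betacyanin and at 5.56, 5.64 and 5.55 with phenylalanine-betaxanthin. The indicaxanthin arrays gave 2.17, 1.85 and 5.53, the last being the array that stands apart. High and low readings of glp-1 did not overlap, and the high ones were the 4 arrays on which the germ-line markers were high.

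gld-1, which encodes a repressor of translation that germ cells need to finish female meiosis, had the widest range of the 9. Its level was 3.68 and 2.95 in control and 9.18, 8.95 and 9.17 with phenylalanine-betaxanthin. With indicaxanthin it was 2.99, 2.77 and 9.32, and with indoline carboxylic acid-betacyanin 1.90, 3.68 and 2.44. The 3 arrays of the last group spread more for gld-1 (SD 0.91, n = 3) than for the other regulators, and the highest of them reached the control range.

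The partner genes gld-2 and gld-3 followed the same split with different sizes. gld-3, which encodes an RNA-binding protein that joins the polymerase and also counteracts the FBF proteins, was at 2.54 and 2.30 in control and at 7.79, 7.81 and 7.68 with phenylalanine-betaxanthin. It was at 2.24, 2.01 and 7.68 with indicaxanthin and at 1.80, 2.05 and 1.85 with indoline carboxylic acid-betacyanin, where all 3 arrays lay below both controls. That position was shared by 29.2% of all clusters tested. gld-2, which encodes the polymerase itself, was at 3.84 and 3.54 in control, at 3.63, 3.32 and 5.70 with indicaxanthin, at 3.53, 3.64 and 3.70 with indoline carboxylic acid-betacyanin, and at 5.71, 5.22 and 5.004 with phenylalanine-betaxanthin. The gld-2 readings thus formed the same high and low sets as gld-3, over a narrower range.

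nos-3, which encodes a protein of the Nanos family that binds FBF and acts in the switch from sperm to oocytes, was at 6.61 and 6.38 in control, at 6.25, 6.14 and 8.36 with indicaxanthin, at 6.54, 6.43 and 6.38 with indoline carboxylic acid-betacyanin and at 8.48, 8.46 and 8.39 with phenylalanine-betaxanthin. The high and the low readings did not overlap, and each set was narrow.

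Of the paralogs fbf-1 and fbf-2, fbf-1 followed this split only in part and fbf-2 did not follow it. fbf-1 was at 2.77 and 2.59 in control, at 1.93, 1.48 and 4.02 with indicaxanthin, at 2.06, 1.61 and 1.80 with indoline carboxylic acid-betacyanin and at 3.53, 2.56 and 3.68 with phenylalanine-betaxanthin. Its trial 2 value with phenylalanine-betaxanthin fell just under the control values. fbf-2 was at 2.24 and 2.19 in control, at 1.62, 1.41 and 1.62 with indicaxanthin, at 1.35, 1.36 and 1.18 with indoline carboxylic acid-betacyanin and at 1.62, 1.63 and 2.11 with phenylalanine-betaxanthin. All 9 treated arrays lay below both control arrays for fbf-2 alone among the 9 regulators, a position that 10.1% of all clusters tested shared. Apart from 2.11, the treated levels of fbf-2 lay near or below the filter level of 1.52 described below. The trial 3 array of indicaxanthin did not stand apart from its group for fbf-2. 1 protein-coding gene lies between fbf-1 and fbf-2 in the same RefSeq table, and their coding sequences are known to be very similar. Whether their probes are shared was not tested, so the separate levels of fbf-1 and fbf-2 are uncertain.

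The sperm-fate genes read low in control, near the filter level described below. fog-1, which encodes a regulator of the CPEB family, was at 1.55 and 1.66 in control, at 1.61, 1.84 and 3.49 with indicaxanthin, at 1.67, 1.51 and 1.71 with indoline carboxylic acid-betacyanin and at 3.10, 2.86 and 2.40 with phenylalanine-betaxanthin. fog-3, which encodes a Tob-family protein, was at 1.76 and 1.78 in control, at 1.42, 1.76 and 1.80 with indicaxanthin, at 1.77, 1.71 and 1.64 with indoline carboxylic acid-betacyanin and at 1.62, 2.29 and 1.93 with phenylalanine-betaxanthin. fog-1 was high on the 4 arrays with high germ-line markers, while the groups overlapped for fog-3. No detection call came with these values, and the filter on low values stood at 1.52 for the mean over all arrays, which all 9 genes passed.

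**Figure D2:**
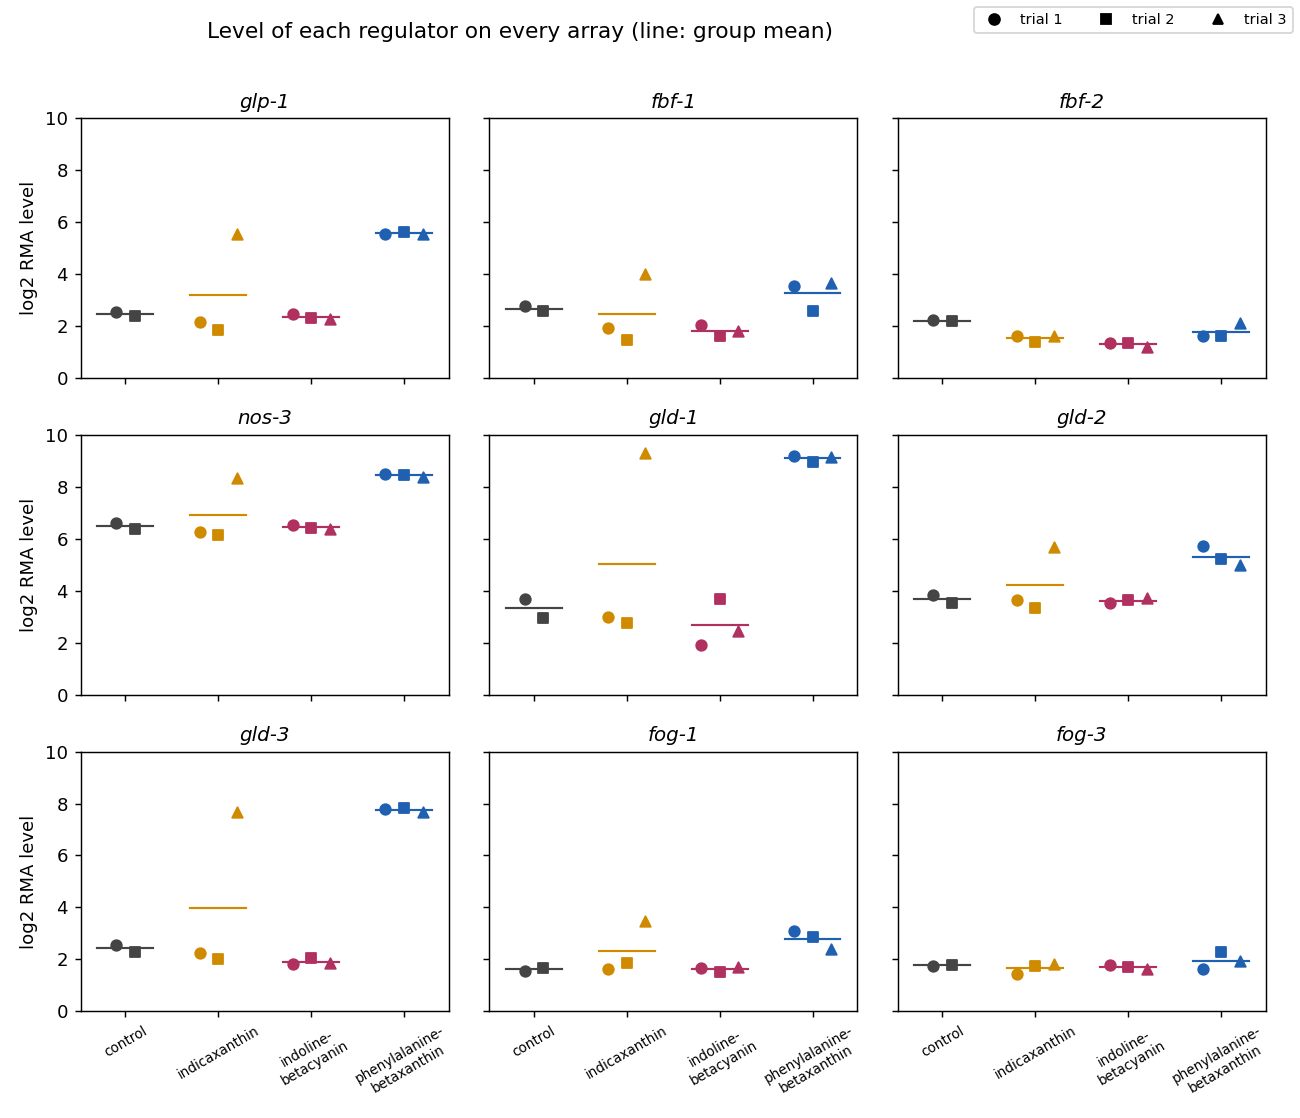
Log2 level of each of the 9 regulators on each array, by group (control with 2 arrays, the other groups with 3); each point is 1 array. glp-1, gld-1, gld-2, gld-3, nos-3 and fog-1 are high on the phenylalanine-betaxanthin arrays and the trial 3 array of indicaxanthin, while fbf-2 is highest in control.

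With phenylalanine-betaxanthin, 4 of the 9 regulators rose over control: gld-1 by 5.78 on the log2 scale, gld-3 by 5.34, glp-1 by 3.11 and nos-3 by 1.95. In limma's test over all 11 arrays the standard errors were 1.67, 1.39, 0.89 and 0.55, and the Benjamini-Hochberg adjusted p-values 0.0254, 0.0206, 0.0249 and 0.0245. None of the 9 passed in the lower direction. The same test called 44.6% of all 20291 clusters, and 22.3% in the higher direction. A count of 4 in 9 is thus near the share called in either direction and above the share called higher. The median change of the 9 was 1.62, against -0.05 over all clusters tested.

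The other 5 did not pass with all arrays. gld-2 differed by 1.62 (SE 0.60, adjusted p = 0.0525) and fog-1 by 1.18 (SE 0.48, adjusted p = 0.0729), with no overlap between the groups. fbf-2 differed by -0.43 (SE 0.17, adjusted p = 0.0709), again without overlap. Among all clusters tested, 34.9% lay above control without overlap and 40.5% below it. fbf-1 differed by 0.58 (adjusted p = 0.494) and fog-3 by 0.18 (adjusted p = 0.495). Without the trial 3 array of indicaxanthin the differences were the same and the errors smaller. Then 6 regulators rose, gld-2 (adjusted p = 2.87e-05) and fog-1 (adjusted p = 0.000225) joining the first 4, and fbf-2 fell (adjusted p = 0.0450). In that fit 61% of all clusters were called, 28.5% in the higher direction. fbf-1 (adjusted p = 0.109) and fog-3 (adjusted p = 0.444) did not pass in that fit either.

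These calls rested on few arrays. Without control 1 or control 2, which leaves 1 control array, the log2 change of glp-1 was 3.19 and 3.03. Leaving out the trial 1 or trial 2 array of phenylalanine-betaxanthin left 0 regulators past the limma threshold. The adjusted p-values were then 0.0631 and 0.0620 for glp-1, with log2 changes of 3.12 and 3.08. Leaving out the trial 3 array of phenylalanine-betaxanthin left 2 regulators, of which 1 was higher and 1 lower. The share of all clusters called in these fits is not given here. Most pathway genes named below as higher with this compound also lost their call without its trial 1 or trial 2 array, so such a loss was not particular to the regulators.

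The regulators were also set against the germ line they sit in. With each array centred on the mean of the 15 germ-line genes, the direction with phenylalanine-betaxanthin turned for glp-1, gld-2, nos-3, fbf-1, fog-1 and fog-3, and stayed for gld-1, gld-3 and fbf-2. On that scale gld-1 was higher by 2.11 (SE 0.94, adjusted p = 0.0481) and gld-3 differed by 1.67 (SE 0.78, adjusted p = 0.0564). gld-2 fell by 2.05, nos-3 by 1.72, fbf-1 by 3.09, fbf-2 by 4.10, fog-1 by 2.49 and fog-3 by 3.49, with adjusted p-values from 0.00849 to 0.0486 in limma. glp-1 differed by -0.56 (adjusted p = 0.445). This centring moved the median of all clusters by -3.67 and put 18356 clusters in the lower direction past the threshold, so a fall on this scale is shared by most genes. The germ-line list itself had a median change of 3.78 on the uncentred scale, against 5.78 for gld-1 and 5.34 for gld-3.

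**Figure D3:**
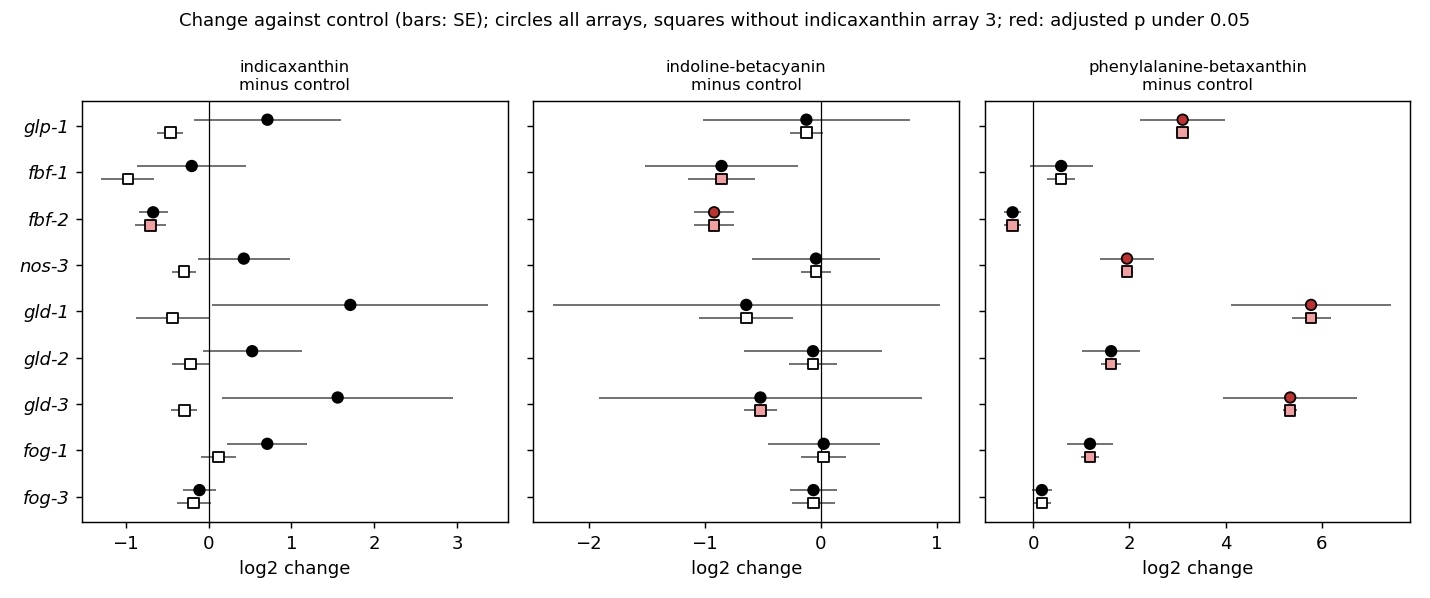
Log2 change of each regulator between groups with its standard error from limma, with all arrays and without the trial 3 array of indicaxanthin. Phenylalanine-betaxanthin against control runs from -0.43 for fbf-2 to 5.78 for gld-1. Centring on germ-line genes turns the direction of glp-1, gld-2, nos-3, fbf-1, fog-1 and fog-3 in that comparison.

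With indoline carboxylic acid-betacyanin, fbf-2 was the 1 regulator that changed: it fell by 0.92 on the log2 scale against control (SE 0.17, adjusted p = 0.00615 in limma), with all 3 treated arrays below both controls. The test called 17.3% of all clusters in this comparison, 9.37% in the lower direction. All 3 treated arrays lay below both controls for 29.2% of clusters. Without control 1 the fall of fbf-2 was 0.89 and no longer passed (adjusted p = 0.0547). The other differences were -0.85 for fbf-1 (SE 0.66, adjusted p = 0.486), -0.64 for gld-1, -0.52 for gld-3, -0.12 for glp-1, -0.07 for gld-2, -0.06 for fog-3, -0.04 for nos-3 and 0.03 for fog-1. Their errors were wide with all arrays: the 95% interval for glp-1 ran from -2.14 to 1.89. Without the trial 3 array of indicaxanthin that interval was -0.44 to 0.19, and 3 regulators fell, namely fbf-2 (adjusted p = 0.00130), fbf-1 (adjusted p = 0.0413) and gld-3 (adjusted p = 0.0153), beside 35.4% of all clusters, 18.2% in the lower direction. The germ-line list was at 2.43 to 2.44 with this compound and at 2.45 to 2.65 in control.

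With indicaxanthin, limma called 0 of the 9 regulators against control with all arrays, and 1 of them, fbf-2, had an unadjusted p under 0.05. The test called 6.2% of all clusters, 5.88% in the lower direction, and 16.5% had an unadjusted limma p under 0.05. fbf-2 differed by -0.67 (SE 0.17, adjusted p = 0.0607), and without the trial 3 array it fell by 0.71 (SE 0.19, adjusted p = 0.0327), where 10.5% of all clusters were called, 7.45% in the lower direction. For glp-1, gld-1, gld-2, gld-3 and nos-3 the sign of the difference turned with that array. glp-1 differed by 0.71 with it and by -0.46 without it (adjusted p = 0.682 and 0.0881), and gld-1 by 1.71 and -0.44. gld-3 differed by 1.56 and -0.29, nos-3 by 0.42 and -0.30, and gld-2 by 0.53 and -0.22. fbf-1 differed by -0.20 with all arrays and by -0.98 without that array (adjusted p = 0.0822). These comparisons with control share the same 2 control arrays, so a low value with all 3 compounds, as for fbf-2, is not 3 separate observations.

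The compounds were also compared with each other at the same dose and time, in 3 pairs. Against phenylalanine-betaxanthin, 6 regulators were lower with indoline carboxylic acid-betacyanin: the log2 difference was -6.42 for gld-1, -5.86 for gld-3, -3.23 for glp-1, -1.99 for nos-3, -1.69 for gld-2 and -0.49 for fbf-2. The adjusted p-values were 0.00852, 0.00625, 0.0104, 0.0109, 0.0283 and 0.0293 in limma, in a comparison where 47.3% of all clusters were called, 23.8% in the lower direction. Without the trial 3 array of indicaxanthin, fbf-1 and fog-1 joined them, making 8 of 9 beside 59% of all clusters, 29.3% in the lower direction. Under germ-line centring gld-1 and gld-3 kept their direction, and 6 others passed as higher with indoline carboxylic acid-betacyanin, a direction in which that scale put 18746 of the clusters. glp-1 differed there by 0.56 (adjusted p = 0.396 in limma).

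Between indoline carboxylic acid-betacyanin and indicaxanthin limma called 0 of the 9 in either fit, and none had an unadjusted p under 0.05 with all arrays. The test called 14.2% of all clusters, and 27.8% without the trial 3 array of indicaxanthin. An unadjusted limma p under 0.05 was held by 27.3% and 37.1% of all clusters in these fits. Without that array glp-1 differed by 0.34 (95% interval 0.03 to 0.65, adjusted p = 0.104), its unadjusted p being under 0.05. The interval there was -1.10 to 0.69 for gld-1 and -0.59 to 0.16 for fbf-2. These intervals do not show that the compounds act alike.

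Between both betaxanthins, which differ in the amino acid they carry, limma called 0 regulators and 0% of all clusters with all arrays, while 32.7% of clusters and 4 regulators had an unadjusted p under 0.05. The difference of phenylalanine-betaxanthin from indicaxanthin was 4.07 for gld-1 (SE 1.49, adjusted p = 0.140). Without the trial 3 array of indicaxanthin 7 of the 9 were higher with phenylalanine-betaxanthin, by 6.21 for gld-1, 5.64 for gld-3, 3.57 for glp-1, 2.25 for nos-3, 1.84 for gld-2, 1.56 for fbf-1 and 1.06 for fog-1, beside 55.1% of all clusters, 26.6% in the higher direction. Their adjusted p-values ran from 4.23e-10 to 0.000728. The call between these compounds was thus decided by 1 array.

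Because the arrays fell into 2 sets, the regulators were compared with each other inside the larger one, the 7 arrays whose r with control 1 exceeded 0.85. Over these 7 arrays glp-1 and nos-3 kept a Pearson r of 0.95, fbf-1 and fbf-2 one of 0.889, and gld-3 and fbf-2 one of 0.905. gld-1 correlated with gld-3 at 0.742 but with glp-1 at 0.0969 and with nos-3 at 0.118. fog-1 ran below 0 with each of the others except fog-3, from -0.749 with gld-2 to -0.329 with fbf-2. Its levels on these arrays spanned only 1.51 to 1.84, near the filter level of 1.52. The 7 arrays come from control, indicaxanthin and indoline carboxylic acid-betacyanin, so r mixes differences between groups with the spread within them. The remaining 4 arrays are too few for such a value. The r over all 11 arrays, 0.969 to 0.999 for each pair among glp-1, gld-1, gld-2, gld-3 and nos-3, therefore describes the step between the sets. With these genes fbf-1 had an r of 0.83 to 0.854, and fbf-2 stood apart from that step with 0.147 to 0.239.

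The level of fbf-1 less that of fbf-2, whose change between arrays does not depend on a scaling of the array, was 0.52 and 0.40 in control, 0.71, 0.25 and 0.62 with indoline carboxylic acid-betacyanin and 1.92, 0.93 and 1.57 with phenylalanine-betaxanthin. With indicaxanthin it was 0.31, 0.07 and 2.40, so this gap too was larger on the 4 arrays with high germ-line markers. All arrays share 1 normalization.

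As a description over the same 2 sets of arrays, the gene among all clusters tested whose profile was most like that of glp-1 was nos-3 (r = 0.999 over 11 arrays), followed by lin-54 (r = 0.9987). gld-3 was most like rnp-8 (r = 0.9992), which encodes a partner of GLD-2, and next like the Argonaute gene wago-4 (r = 0.9989). gld-1 was most like nsph-2 (r = 0.9973), gld-2 most like C35E7.9 (r = 0.9933) and fog-1 most like C33F10.11 (r = 0.9927). For nos-3 the closest after glp-1 was oma-2 (r = 0.9983), an oocyte gene. The closest to fbf-1 was W03D8.8 (r = 0.9616), to fbf-2 arrd-2 (r = 0.9559) and to fog-3 D2045.9 (r = 0.9109). Without the trial 3 array of indicaxanthin the first place was unchanged for glp-1, gld-1, gld-2, nos-3 and fog-3, and changed for gld-3, fbf-1, fbf-2 and fog-1.

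The Notch pathway around glp-1 was followed with 16 genes. With phenylalanine-betaxanthin 11 rose and 2 fell, with a median change of 1.35, and 12 rose and 2 fell without the trial 3 array of indicaxanthin, beside 44.6% and 61% of all clusters called. Leaving out other arrays brought the 13 calls down to as few as 1. Those that rose most were hop-1, a presenilin gene, by 5.28 (adjusted p = 0.0200), apx-1, another ligand gene, by 4.16 (adjusted p = 0.0258), and ego-1, an RNA polymerase gene of the germ line, by 3.34 (adjusted p = 0.0209). With indoline carboxylic acid-betacyanin 2 rose and 1 fell, beside 17.3% of all clusters, and with indicaxanthin 1 fell, beside 6.2%. Without the trial 3 array of indicaxanthin 5 rose and 2 fell with the first, beside 35.4%, and 1 fell with the second, beside 10.5%. aph-1, which encodes a subunit of the protease that cuts Notch receptors, rose with indoline carboxylic acid-betacyanin by 1.02 (adjusted p = 0.0405) and with phenylalanine-betaxanthin by 1.15 (adjusted p = 0.0193). The first of these calls held in 7 of 20 alternative settings and was lost without either control or any 1 array of that compound. The second was lost without either control and without the trial 1 or trial 2 array of phenylalanine-betaxanthin.

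lag-2, which encodes the ligand that the tip cell presents to GLP-1, was at 2.69 and 2.78 in control. It was at 1.84, 1.71 and 1.86 with indicaxanthin, at 1.48, 1.52 and 1.78 with indoline carboxylic acid-betacyanin and at 1.89, 1.95 and 1.96 with phenylalanine-betaxanthin. All 9 treated arrays lay below both controls, a position that 10.1% of all clusters tested shared. The trial 3 array of indicaxanthin did not stand apart. The treated levels lay near the filter level of 1.52, and the comparisons with control share the same 2 control arrays. lag-2 fell by 0.93 (SE 0.13, adjusted p = 0.00234), by 1.14 (adjusted p = 0.000398) and by 0.80 (adjusted p = 0.00434) in limma. The fall did not pass with germ-line centring for the first 2 compounds, nor for indicaxanthin in a fit of only the groups compared.

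sygl-1 and lst-1, direct targets of GLP-1 signalling that keep stem cells with FBF, did not move together. sygl-1 was at 3.17 and 2.82 in control, at 2.37, 3.02 and 5.14 with indicaxanthin, at 2.38, 2.27 and 2.34 with indoline carboxylic acid-betacyanin and at 5.28, 5.05 and 5.70 with phenylalanine-betaxanthin, where it rose by 2.35 (adjusted p = 0.0234), a call that was lost without either control or any 1 array of that compound. lst-1 was at 4.94 and 4.71 in control and at 4.96, 5.13 and 6.40 with indicaxanthin. It was at 6.46, 6.30 and 6.59 with indoline carboxylic acid-betacyanin and at 6.52, 6.22 and 6.45 with phenylalanine-betaxanthin. It rose with both of the last, by 1.62 (adjusted p = 0.0156) and 1.57 (adjusted p = 0.0174), calls that were lost without either control, and also without the trial 3 array of the first or the trial 1 array of the second. lst-1 was thus high on 7 arrays, 3 of which had low germ-line markers.

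The sex-determination list held 19 tested genes. With phenylalanine-betaxanthin 10 rose and none fell, with a median of 1.08, and 11 rose without the trial 3 array of indicaxanthin. Beside these counts stand 44.6% and 61% of all clusters called, 22.3% and 28.5% in the higher direction, while leaving out other arrays brought the count as low as 0. fog-2, which hermaphrodites need to make sperm and which acts with GLD-1 on tra-2, rose by 4.93 (adjusted p = 0.0197). fem-3, which promotes sperm fate and is repressed by FBF and NOS-3, rose by 3.62 (adjusted p = 0.0257), and tra-2, which promotes oocyte fate, by 1.08 (adjusted p = 0.0291). mog-3 and mog-1, which hermaphrodites need to switch from sperm to oocytes, rose by 1.84 (adjusted p = 0.0141) and 1.59 (adjusted p = 0.0194). tra-3, a protease gene of the same pathway, rose with indoline carboxylic acid-betacyanin by 1.04 (SE 0.13, adjusted p = 0.000680). It was the 1 gene of the list to pass there with all arrays, beside 17.3% of all clusters. Without the trial 3 array of indicaxanthin 5 rose and 1 fell there, beside 35.4% of all clusters. The levels of tra-3 were 5.11 and 5.14 in control, 6.15, 6.15 and 6.19 with that compound, and 5.27, 5.42 and 5.05 with phenylalanine-betaxanthin. The indicaxanthin arrays, at 5.58, 5.59 and 5.62, too lay above both controls, without passing the test (adjusted p = 0.0786). Among all clusters tested, 16.1% had every indicaxanthin array above both controls. No gene of the list passed with indicaxanthin in either fit. With all arrays 4 had an unadjusted limma p under 0.05, beside 16.5% of all clusters.

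Of 19 tested genes whose proteins act beside the regulators, 14 rose with phenylalanine-betaxanthin and none fell (median 2.34), and 17 rose without the trial 3 array of indicaxanthin, beside 22.3% and 28.5% of all clusters called higher. rnp-8 rose by 6.30 (adjusted p = 0.0214), puf-11 by 5.41, nos-2 by 5.35 and cpb-1, which encodes a partner of FBF, by 4.74. gld-4, which encodes a further poly(A) polymerase, rose by 2.34 (adjusted p = 0.0286), and gls-1, which encodes a GLD-3 partner, by 1.87 (adjusted p = 0.0427). With all arrays ccf-1, a deadenylase gene, was the 1 gene of this list called with indoline carboxylic acid-betacyanin. It fell by 0.88 (adjusted p = 0.0180), a call lost without either control and without the trial 2 array of that compound. Without the trial 3 array of indicaxanthin 2 genes of the list rose with that compound and 6 fell. These counts stand beside 17.3% and 35.4% of all clusters called. With indicaxanthin none passed with all arrays, and 1 had an unadjusted limma p under 0.05, beside 16.5% of all clusters. Without its trial 3 array 1 fell, beside 10.5% of all clusters called.

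Of 20 genes known as mRNA targets of FBF or GLD-1, or linked to them, 17 rose with phenylalanine-betaxanthin and none fell (median 3.68), and 19 rose without the trial 3 array of indicaxanthin, beside 22.3% and 28.5% of all clusters called higher. The largest changes passing the test were puf-5 by 7.07, him-3 by 6.69, rme-2 by 6.25 and puf-6 by 6.10. These 4 genes act in oocytes or in meiosis. With indoline carboxylic acid-betacyanin mpk-1, the MAP kinase gene of the germ line, rose by 0.82 (adjusted p = 0.0247), a call lost in 8 of 20 settings, among them leaving out either control or any 1 array of that compound. It was the 1 target called with that compound with all arrays, beside 17.3% of all clusters. Without the trial 3 array of indicaxanthin 3 targets rose with that compound and 2 fell, beside 35.4% of all clusters. With indicaxanthin none passed with all arrays and 1 had an unadjusted limma p under 0.05, beside 16.5% of all clusters. Without its trial 3 array 1 target fell, beside 10.5% of all clusters. For both this list and the partner list, leaving out 1 array brought the count with phenylalanine-betaxanthin as low as 0.

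The authors also deposited their own comparisons of each betalain with control. In the authors' deposited table for phenylalanine-betaxanthin the ratio over control was 13.2 for gld-1, 10.2 for gld-3, 3.80 for glp-1 and 2.44 for nos-3, with unadjusted p-values of 0.117, 0.129, 0.127 and 0.145. In the authors' deposited table for indoline carboxylic acid-betacyanin the ratio was 0.531 for fbf-2 (unadjusted p = 0.0163), 0.183 for gld-1 (unadjusted p = 0.301) and 0.202 for gld-3 (unadjusted p = 0.289). The authors' deposited table for indicaxanthin is limited to clusters whose p was under 0.05, and of the 9 it held fbf-1 at 0.374 and fbf-2 at 0.474. In the authors' deposited tables the sum of squares over the squared log2 ratio is 1.5 for phenylalanine-betaxanthin and indoline carboxylic acid-betacyanin, the value that 3 arrays against 3 give, so those tables include a control array that is not analysed here. For indicaxanthin it is 1.0, the value of 2 against 2. The authors' deposited table for indicaxanthin was not made from the arrays as they stand here: its log2 ratio for fbf-2 is -1.08, while the lowest indicaxanthin array lies 0.84 below the highest control. In the authors' deposited table for indicaxanthin 22.2% of 3331 clusters have a ratio that no choice among these arrays gives, within 0.01 on the log2 scale.

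An approximate level of each gene on that further control array can be derived from the authors' deposited tables and the arrays, and each of the 2 tables gives its own estimate. Both would be equal if the tables were made from exactly the values used here, and an error in the log2 ratio counts 3 times. Over 20291 clusters both estimates correlated at r = 0.981, with a median absolute difference of 0.24 on the log2 scale and a 95th percentile of 0.89. Both use the same 2 control arrays, and r over clusters also reflects differences in level between genes, so it says little about their accuracy. Among the regulators the estimates differed most for fbf-1, by 0.92. The level implied by the authors' deposited tables was 8.74 and 9.49 for gld-1, 7.79 and 8.41 for gld-3, 5.70 and 6.02 for glp-1 and 8.51 and 8.48 for nos-3. For fog-1 the authors' deposited tables implied 2.88 and 3.49, and for gld-2 they implied 5.23 and 4.44. These 6 lay above both control arrays by both estimates, in the range of the phenylalanine-betaxanthin arrays or near it. From the authors' deposited tables the implied germ-line mean of that array was 6.40 and 6.36 and its yolk mean 10.1 and 10.2. For fbf-2 the authors' deposited tables implied 2.20 and 1.81, for fbf-1 3.31 and 2.39 and for fog-3 1.79 and 1.64. From the authors' deposited tables lag-2 came to 1.90 and 1.47, nearer to the treated arrays than to the 2 control arrays. lst-1 came to 6.26 and 6.40 there, near its levels with indoline carboxylic acid-betacyanin and phenylalanine-betaxanthin. The authors' deposited tables implied 5.68 and 5.79 for aph-1, 5.87 and 5.68 for tra-3 and 6.26 and 5.95 for mpk-1. For ccf-1, which fell with indoline carboxylic acid-betacyanin, the authors' deposited tables implied 9.05 and 8.99. aph-1, tra-3, mpk-1 and ccf-1 lay above both control arrays by both estimates, as did every pathway gene named as higher with phenylalanine-betaxanthin.

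**Figure D4:**
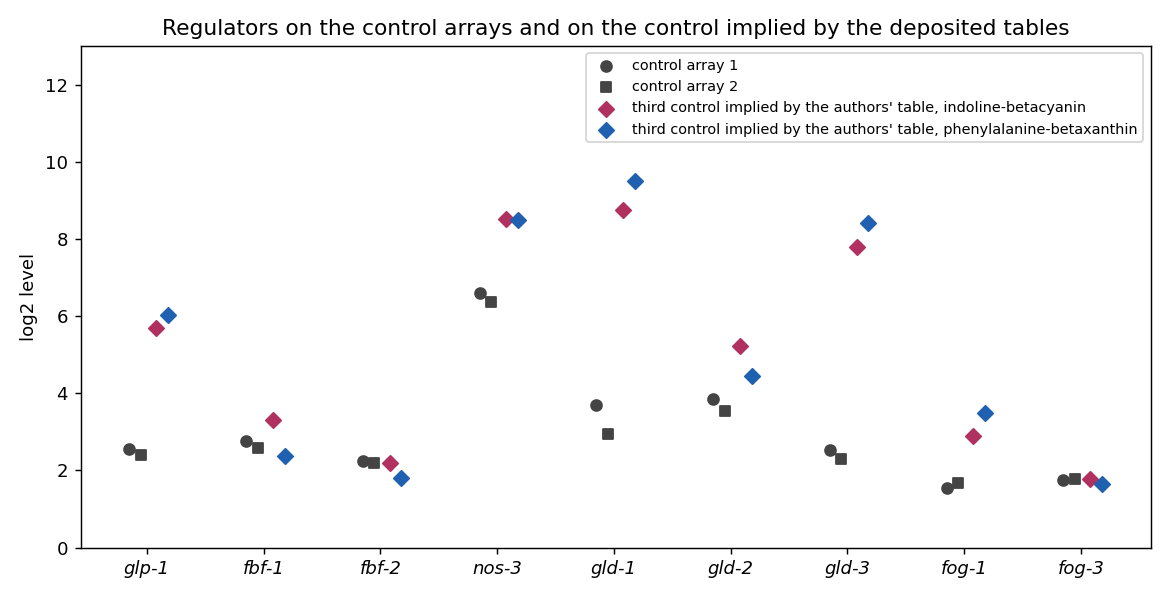
Log2 level of each regulator on the 2 control arrays, and on a further control array as implied by the authors' deposited tables for indoline carboxylic acid-betacyanin and phenylalanine-betaxanthin. glp-1, gld-1, gld-3, nos-3 and fog-1 lie over 1 log2 unit above both control arrays by both estimates.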

How the data were processed

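Whole wild-type N2 worms were profiled on 11 Affymetrix arrays from 3.5 ng of RNA each. The authors' deposited matrix gives 1 log2 value per transcript cluster and array, and RMA made it, per the submitters' processing notes. RMA corrects background, makes the arrays' distributions equal and summarises probes. Its version, the array model and the genome build were not given in the sources used here. Per the file headers, the authors' deposited tables hold a linear treated-to-control ratio with its p-value, unadjusted, and sums of squares, a score that shows the number of arrays. Names came from these tables: 27055 of 29317 clusters had one, 26811 matched the RefSeq table, and 2262 were left out of the tests. No column lacked a sample.

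Clusters whose mean over all arrays exceeded the 25th percentile of named clusters (20291) were fitted with limma 3.58.1 in R 4.3.3 (lmFit and eBayes), with all 4 groups in 1 model and no block. There were 7 residual and 1.93 prior degrees of freedom. The 6 comparisons were each adjusted by the Benjamini-Hochberg method at 0.05. The fit was tested on simulated data. Alternatives were the trial block, filters, scalings, variance models, array weights, fits restricted to the groups in question and leaving out each array. The 9 genes are always named. From each pathway list up to 4 genes per comparison with control, the largest changes past the threshold, are named, and always lag-2, sygl-1, lst-1, fog-2, fem-3, tra-2, gls-1, rnp-8 and gld-4. The genes and lists were chosen with earlier results of these data known. Array number limits the precision.

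The level x of the further control array was found from the authors' log2 ratio, as 3 times the control mean that the ratio and the treated arrays imply, less the 2 control arrays. This assumes that the tables were made from the deposited values, which does not hold for the indicaxanthin table and, as the estimates from the other 2 tables differ, holds for those at best in part.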

Additional observations from a re-analysis of the deposited data

Results flagged for a closer look

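The control array that is not analysed here, whose levels are implied by the authors' deposited tables, stood above both control arrays by over 1 log2 unit for 5 of the 9 regulators by both tables, a position held by 15.6% of the clusters tested. From the authors' deposited table for indoline carboxylic acid-betacyanin its level was 5.70 for glp-1, where the control arrays read 2.56 and 2.39. The same authors' deposited table implied 8.74 for gld-1 against 3.68 and 2.95, and 7.79 for gld-3 against 2.54 and 2.30. It implied 8.51 for nos-3 against 6.61 and 6.38, and 2.88 for fog-1 against 1.55 and 1.66. These are values from outside the comparisons of the arrays, and what set that array apart was not tested.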

How the results depend on the processing

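With phenylalanine-betaxanthin 4 regulators passed against control, and the count was 0 with the trial number as a replicate block, 7 with germ-line centring, 7 with array weights and 0 to 7 when 1 array was left out. With indoline carboxylic acid-betacyanin 1 passed, and the count was 0 with a filter at the median, which dropped fbf-2, fog-1 and fog-3, 0 with germ-line centring, 2 with array weights, 3 with only the groups compared and 0 to 3 leaving out 1 array. With indicaxanthin 0 passed, and 1 did with no filter, 1 with trended and robust eBayes and 0 to 1 leaving out 1 array. Between the betaxanthins 0 passed, and the count was 3 with germ-line centring, 7 with array weights and 0 to 7 leaving out 1 array. Between indoline carboxylic acid-betacyanin and phenylalanine-betaxanthin 6 passed, with a range of 4 to 8 leaving out 1 array and 7 with the replicate block. Where a control was left out, the lone control was taken to vary like the other groups. Germ-line centring called 0 of all clusters with indoline carboxylic acid-betacyanin against control, so its count of 0 says nothing particular to the regulators. It called 92 clusters higher and 18356 lower with phenylalanine-betaxanthin against control, and 43 and 15441 between the betaxanthins. For the other settings no share of all clusters is given in this section.

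Of 1062 recomputed changes of regulators, 913 kept direction and call, 35 lost the call and 48 gained it, 50 changed sign without passing in either fit, and 16 reversed. All 16 came from germ-line centring, which by construction removes the change of the germ-line list. Against control with phenylalanine-betaxanthin they were glp-1 -0.56, gld-2 -2.05, nos-3 -1.72, fbf-1 -3.09, fog-1 -2.49 and fog-3 -3.49. Between the betaxanthins they were fbf-2 -2.17, fog-1 -1.94 and fog-3 -2.12. Between indoline carboxylic acid-betacyanin and phenylalanine-betaxanthin they were glp-1 0.56, gld-2 2.10, nos-3 1.80, fbf-1 2.35, fbf-2 3.30, fog-1 2.64 and fog-3 3.55. Among the named pathway genes, aph-1, ego-1, fem-3, gld-4, gls-1, lst-1, mog-1, mog-3, sygl-1 and tra-2 also changed sign under this centring. These were changes with phenylalanine-betaxanthin against control, such as -2.52 for aph-1 and -2.10 for lst-1. The other causes were not tested.

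The trial numbers did not pair the arrays: over 15 same-numbered pairs, deviations from the group means correlated at -0.292 to 0.101. Centring each array on its median moved the median change of all clusters by 0.15 with phenylalanine-betaxanthin and turned a split of 4517 higher and 4524 lower into 5534 and 3385. With indoline carboxylic acid-betacyanin it turned 1617 and 1902 into 2387 and 1568, and with indicaxanthin 64 and 1194 into 181 and 979. With the replicate block, the counts with phenylalanine-betaxanthin were 7 for the Notch list, 4 for sex determination, 2 for the partners and 4 for the targets, against 13, 10, 14 and 17 without it.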
